A study of Mus musculus with 8 samples.

Results

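The EGF receptor ligands described here are 6 genes, Areg, Ereg, Hbegf, Btc, Tgfa and Nrg1, taken by gene symbol from the expression tables of tumor-associated macrophages (TAMs). All 6 had a row, among 16786 genes with a value in the 7 complete libraries. TAMs were sorted as CD45+F4/80+ cells, on day 14, from melanomas that B16 cells had formed under the skin of C57BL/6 mice. TAM-WT is 4 libraries from WT littermates. TAM-KO is 4 libraries from Colec11-/- mice, which lack the soluble C-type lectin collectin-11 (CL-11) in every tissue, not in macrophages alone. About 200000 sorted cells went into each extraction and each library came from 1 mouse. The methods describe the mice as young adult males where nothing else is stated. The comparison of TAM-KO with TAM-WT asks how macrophages of the tumor differ when the host makes no CL-11.

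EGF receptor ligands are made as proteins anchored in the cell membrane and are released when a metalloprotease such as ADAM17 or ADAM10 cuts them. Amphiregulin (Areg) and TGF-alpha (Tgfa) bind the EGF receptor, also called ERBB1. Epiregulin (Ereg), HB-EGF (Hbegf) and betacellulin (Btc) bind the EGF receptor and ERBB4. Neuregulin-1 (Nrg1) binds ERBB3 and ERBB4 and not the EGF receptor itself, so it belongs to the family through its receptors' partners. Receptor pairs signal through the RAS and ERK kinases, and several ligands and inhibitors of the pathway are themselves immediate early genes, which means that they rise soon after a cell is stimulated. Macrophages are known as a source of Areg and Hbegf in wounded and inflamed tissue.

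In the RefSeq annotation of GRCm38.p6, 3 of the 6 genes lie on 1 stretch of chromosome 5. Areg spans 91139599 to 91148432 there, and Ereg (91074617 to 91093649) ends 46.0 kb from it. Btc (91357261 to 91402994) lies 209 kb on the other side of Areg. Tgfa lies on chromosome 6 (86195038 to 86275744), and Hbegf and Nrg1 lie on other chromosomes. RefSeq promoter entries were matched for 3 members, Areg, Btc and Tgfa, and not for Ereg, Hbegf and Nrg1. The 250 bases before the annotated start of Areg, the ligand with the widest range between libraries, are shown 5′ to 3′. Capitals mark matches to any of 4 motifs searched on both strands, which are the cAMP response element (CRE, TGACGTCA), the AP-1 site (TGANTCA), the EGR site (GCGNGGGCG) and the TATA box (TATAAA).
Areg (chr5:91139349-91139598, plus strand): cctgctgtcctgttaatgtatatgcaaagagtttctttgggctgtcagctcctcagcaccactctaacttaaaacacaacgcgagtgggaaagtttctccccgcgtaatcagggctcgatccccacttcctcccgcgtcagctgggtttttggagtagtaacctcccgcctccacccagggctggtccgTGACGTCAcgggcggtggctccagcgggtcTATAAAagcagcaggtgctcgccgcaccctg
The Areg window held 1 CRE, beginning 61 bases before the start, and 1 TATA box, beginning 31 bases before it. Windows with a CRE made up 1.55% of 32851 RefSeq promoter entries, and windows with a TATA box 12.4%. The AP-1 letters stood in 6.75% of these windows and the EGR letters in 4.70%, and neither was found in the Areg window. None of the 4 motifs was found in the 250 bases before Btc, which says only that these letters are not in this window.

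The 7 complete libraries held from 16225362 to 17280267 reads on genes, and over the genes present in all 8 the libraries held 10061535 to 10607640. The table of TAM-KO replicate 1 lacks an unbroken run of genes, which holds 4 of the 6 ligands (Areg, Ereg, Hbegf and Btc). For these 4, the TAM-KO replicate 1 value was taken from the authors' series-wide table, which lists genes selected for a difference between the groups. That value enters the mean levels given here (FPKM, reads scaled to gene length and to library size) but not the test, which for Areg, Ereg and Hbegf set 3 TAM-KO against 4 TAM-WT libraries. The same holds for Nrg2, Erbb2, Cd9, Fos, Junb, Jun, Atf3, Egr1, Egr2 and Egr3, whose means have n = 4 and whose fold changes rest on 3 TAM-KO libraries. Colec11 itself had 1 read in each TAM-KO library and 0 to 4 reads in each TAM-WT library, too few to check the genotype. Macrophage genes were high in every library. Cd68 stood at a mean of 2075 ± 204 FPKM (SD over n = 4 libraries) in TAM-WT and 1518 ± 296 (n = 3) in TAM-KO. Csf1r stood at 251 ± 32.4 (n = 4) and 237 ± 23.4 (n = 3). Their directions were mixed. Of 6 macrophage genes tested, 4 were lower and 2 higher in TAM-KO by sign of the fold change, and 0 passed the test. Fcgr1 was higher, at 80.0 ± 16.6 and 118 ± 7.17 (n = 4 each, TAM-KO replicate 1 from the series-wide table), with no overlap. Ptprc was higher too, at 56.4 ± 12.8 and 72.8 ± 13.8 (n = 4 each), with overlap. Mertk was lower, at 22.0 ± 1.55 (n = 4) and 18.6 ± 1.56 (n = 3), with no overlap. Among the 9396 genes tested on 8 libraries, 12.3% had no overlap in the direction of Fcgr1 and 4.8% in that of Mertk. Fcgr1 and Mertk are not in that set, and Mertk has only 3 TAM-KO values. Melanoma cell genes were present as well, with Pmel at 795 ± 366 in TAM-WT and 1272 ± 170 in TAM-KO (n = 4 each) and Dct at 744 ± 263 and 1124 ± 115.

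Areg, Ereg, Hbegf and Tgfa had lower mean levels in TAM-KO, Nrg1 had a higher mean level, and Btc was close to 0. Areg and Hbegf were the most abundant in TAM-WT at about equal levels, 4.49 ± 3.46 and 4.63 ± 2.07 FPKM (SD, n = 4), and both were far below macrophage genes such as Csf1r. They were followed by Nrg1 (0.628 ± 0.372), Tgfa (0.423 ± 0.118), Ereg (0.22 ± 0.153) and Btc (0.02 ± 0.0231). In TAM-KO the order was Hbegf (2.11 ± 0.624), Nrg1 (1.30 ± 0.621), Areg (0.810 ± 0.623), Tgfa (0.163 ± 0.111), Ereg (0.04 ± 0.0616) and Btc (0.01 ± 0.0115), all n = 4. Nrg1 and Areg in TAM-KO, Areg and Hbegf in TAM-WT, and Nrg1 and Tgfa in TAM-WT differed by less than 1 SD, as did Ereg and Btc in TAM-KO. With edgeR's quasi-likelihood test and Benjamini-Hochberg adjustment over 12412 genes, 0 of the 5 tested members passed an adjusted p of 0.05, against 9.81% of all tested genes (5.24% lower and 4.58% higher in TAM-KO). With a fold change of at least 2 asked as well, 2.53% of all genes passed (1.12% lower and 1.41% higher). All 5 had an unadjusted p of at most 0.05, as did 30.7% of all tested genes, 15.7% lower and 14.9% higher. The DESeq2 Wald test passed 4 of the 5 (Areg, Ereg, Hbegf and Tgfa) and 18.2% of all genes, and limma with voom passed 2 (Ereg and Tgfa) and 29.2% of all genes. Areg, Ereg and Tgfa passed the filter on low counts through their TAM-WT libraries, since too few of their TAM-KO libraries held enough reads. The counts of members given here include these genes and are limited by that.

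**Figure D1:**
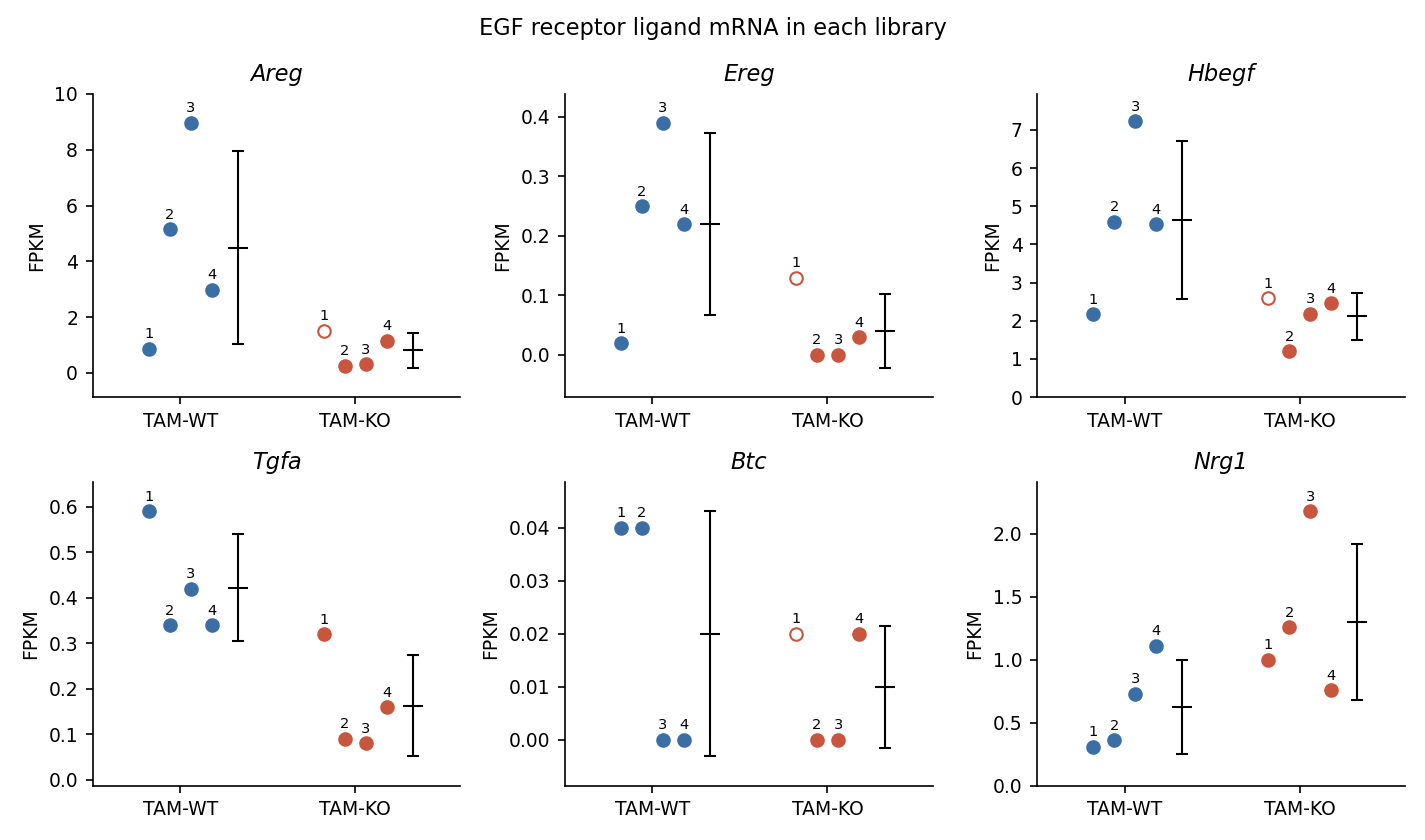
FPKM of each ligand (vertical axis, a separate scale per panel) in the 4 TAM-WT and the 4 TAM-KO libraries, with replicate numbers beside the points. Open points are TAM-KO replicate 1 values from the series-wide table, and the black bars are the mean and SD. In the Areg, Ereg and Hbegf panels TAM-WT replicates 2, 3 and 4 lie above all TAM-KO points and TAM-WT replicate 1 lies among them.

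In replicates 1 to 4 of TAM-WT, Areg had 14, 85, 145 and 49 reads, or 0.87, 5.16, 8.96 and 2.98 FPKM. In those of TAM-KO it had 25, 4, 5 and 19 reads, or 1.51, 0.26, 0.31 and 1.16 FPKM. Values of the other genes are given in the same order. TAM-WT replicates 2, 3 and 4 were above every TAM-KO library, and TAM-WT replicate 1 was below TAM-KO replicates 1 and 4, so the groups overlapped. The fitted log2 fold change, TAM-KO minus TAM-WT, was -3.05 with a standard error of 0.87 (edgeR adjusted p = 0.0619, 3 against 4 libraries). Over 8 fits that each left out 1 library, the fold change was -4.10 at its lowest, with TAM-KO replicate 4 left out, and -2.41 at its highest, with TAM-WT replicate 3 left out. The fit without TAM-KO replicate 1 repeated the main fold change, since Areg was tested without that library in both. The edgeR adjusted p ranged from 0.0254 to 0.195, the latter when TAM-KO replicate 2 was dropped. It passed the threshold in 1 of the 8, without TAM-WT replicate 1, where Ereg and Hbegf also passed and 9.31% of all genes did.

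Ereg, the closest ligand gene to Areg on the chromosome, was far less abundant. The TAM-WT libraries had 1, 17, 26 and 15 reads (0.02, 0.25, 0.39 and 0.22 FPKM), and the TAM-KO libraries had 9, 0, 0 and 2 reads (0.13, 0, 0 and 0.03 FPKM). The order of the libraries was that of Areg apart from a tie at 0, again with TAM-WT replicate 1 among the TAM-KO libraries. The 3 TAM-KO libraries in the test held 2 reads in all and the TAM-WT libraries 59, a ratio per read on genes of 0.0463 with a 95% exact interval from 0.00548 to 0.175 that covers counting error only. The fitted log2 fold change of -4.31 (SE 1.24, edgeR adjusted p = 0.0617) depends on the prior count of the fit, and Ereg passed the filter on low counts through its TAM-WT libraries alone. Over the 5 fits without a library in which Ereg could be tested, its fold change was -6.94 at its lowest, with TAM-KO replicate 4 left out, and -3.79 at its highest, with TAM-KO replicate 2 left out. Among these 5, the fit without TAM-KO replicate 1 repeated the main fold change of -4.31.

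Hbegf (chromosome 18, 36504927 to 36515805), whose protein is also the receptor for diphtheria toxin, had the highest mean FPKM of the ligands in both groups. It had 78, 168, 260 and 166 reads in TAM-WT (2.17, 4.60, 7.23 and 4.53 FPKM) and 95, 42, 78 and 89 reads in TAM-KO (2.59, 1.21, 2.19 and 2.46 FPKM). By FPKM, TAM-WT replicate 1 was below 3 of the 4 TAM-KO libraries and the other TAM-WT libraries were above all of them. Its log2 fold change was -1.36 (SE 0.43, edgeR adjusted p = 0.0782). It passed in 1 of the 8 fits without a library (-1.60, adjusted p = 0.0302, without TAM-WT replicate 1, edgeR), and was lowest in size without TAM-WT replicate 3 (-1.02, adjusted p = 0.174) and without TAM-KO replicate 2 (-1.08, adjusted p = 0.235). Hbegf too was tested without TAM-KO replicate 1, so the fit that left it out repeated the main fold change.

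Tgfa did not follow this library order. It had 43, 25, 22 and 25 reads in TAM-WT (0.59, 0.34, 0.42 and 0.34 FPKM) and 24, 6, 6 and 12 reads in TAM-KO (0.32, 0.09, 0.08 and 0.16 FPKM), all from the sample tables. TAM-WT replicate 1, low for Areg, Ereg and Hbegf, was the highest library for Tgfa. By FPKM every TAM-WT library was above every TAM-KO library, which held in this direction for 4.8% of the 9396 genes tested on 8 libraries. The gap was narrow (0.34 against 0.32), and by reads TAM-WT replicate 3 (22) was below TAM-KO replicate 1 (24). The log2 fold change was -1.34 (SE 0.42, edgeR adjusted p = 0.0685, 4 against 4). It passed in 2 of the 8 fits without a library. These were the fit without TAM-KO replicate 1 (-1.89, edgeR adjusted p = 0.0375), where 5.47% of all genes passed, and that without TAM-WT replicate 2 (-1.42, edgeR adjusted p = 0.0494), where 22.2% did. In the other 6 fits the adjusted p was 0.105 to 0.187 by edgeR, and the fold change was smallest without TAM-WT replicate 1 (-1.10).

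Btc had 2, 2, 0 and 0 reads in TAM-WT and 1, 0, 0 and 1 in TAM-KO. It was removed by the filter on low counts, and at 0 to 2 reads a library no difference was detectable at this depth.

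Nrg1, which spans 31807452 to 32891609 on chromosome 8, was the only member with a higher mean in TAM-KO. It had 17, 12, 29 and 33 reads in TAM-WT (0.31, 0.36, 0.73 and 1.11 FPKM) and 33, 67, 51 and 31 reads in TAM-KO (1.0, 1.26, 2.18 and 0.76 FPKM). TAM-KO replicates 2 and 3, the lowest libraries for Areg, were the highest for Nrg1, and TAM-WT replicate 4 lay within the TAM-KO range. The log2 fold change was 0.90 (SE 0.38, edgeR adjusted p = 0.141). It stayed above the threshold in each of the 18 alternatives (adjusted p from 0.0940 to 0.364, edgeR, DESeq2 or limma). For Nrg1 the FPKM value of 100 reads ranged from 1.82 to 4.27 between libraries, so its library order differs between reads and FPKM.

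The 6 ligands together summed to 4.0, 10.8, 17.7 and 9.18 FPKM in the TAM-WT libraries. In the TAM-KO libraries they summed to 5.57, 2.82, 4.76 and 4.59 FPKM. TAM-WT replicate 1 again stood within the TAM-KO range. Hbegf made up 40.8% to 54.3% of this sum in TAM-WT and 42.9% to 53.6% in TAM-KO, a near constant share. Areg made up 21.8% to 50.5% in TAM-WT and 6.51% to 27.1% in TAM-KO. The share of Nrg1 was 7.75%, 3.35%, 4.12% and 12.1% in TAM-WT and 17.95%, 44.7%, 45.8% and 16.6% in TAM-KO. It did not overlap between the groups, unlike the level of Nrg1 itself. There were 0.0698 to 0.372 Nrg1 FPKM for each Areg FPKM in TAM-WT, and 0.655 to 7.03 in TAM-KO. These shares follow from the levels already given and are a description with no test.

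**Figure D2:**
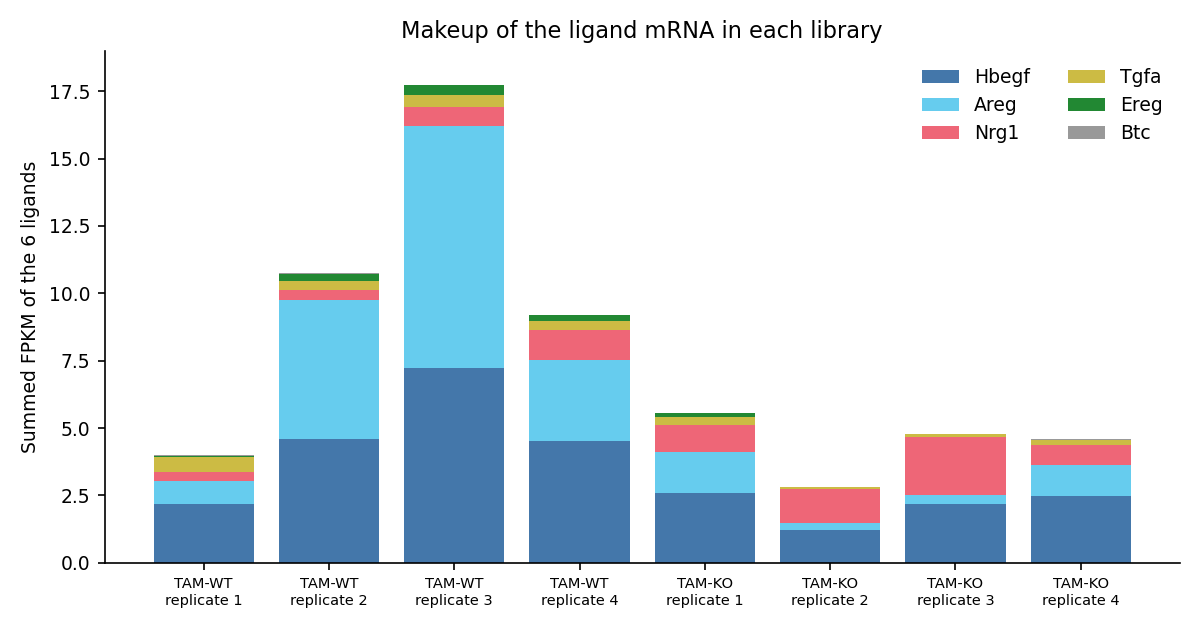
Stacked FPKM of the 6 ligands (vertical axis, starting at 0) in each library (horizontal axis), with TAM-KO replicate 1 values of Areg, Ereg, Hbegf and Btc from the series-wide table. The total runs from 2.82 to 17.7 FPKM, Hbegf keeps a similar share throughout, and Nrg1 takes 44.7% and 45.8% in TAM-KO replicates 2 and 3.

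Each library is bulk RNA of sorted cells, in which fewer cells of a type and less RNA per cell cannot be told apart. Levels of marker genes of other cells also differed between the libraries. The summed FPKM of 5 melanoma cell genes was 2527, 4235, 1928 and 1873 in TAM-WT and 4307, 4878, 4563 and 3643 in TAM-KO, with 5 of 5 higher in TAM-KO and 0 called. TAM-WT replicate 2, one of the highest libraries for Areg, had a melanoma cell sum within the TAM-KO range. The summed FPKM of 5 T cell genes was 12.4, 2.17, 3.06 and 2.39 in TAM-WT, beside 32.2, 27.6 and 12.6 in TAM-KO replicates 2 to 4, with Foxp3 called higher and Cd3g and Cd8a, at log2 fold changes of 3.0 and 3.04, not called. Cd4 had a lower mean in TAM-KO, 2.01 FPKM (n = 4) in TAM-WT and 1.77 (n = 3) in TAM-KO (log2 fold change -0.29, edgeR adjusted p = 0.507). The 5 NK cell genes summed to 0.77 to 12.3 in TAM-WT and 10.2 to 39.7 in TAM-KO replicates 2 to 4, mostly from Gzmb and Klrk1. The defining gene Ncr1 stood at 0.0250 and 0.0850 FPKM, on 2 and 7 reads in all. Klrb1c alone of the 5 had a lower mean in TAM-KO. It was at 0.155 FPKM in TAM-WT (n = 4, 25 reads) and 0.0867 in TAM-KO (n = 3, 10 reads). The 7 neutrophil genes summed to 21.4 to 32.3 in TAM-WT and 48.8 to 55.6 in TAM-KO replicates 2 to 4, with S100a8 called higher, Csf3r at 18.8 and 30.5 FPKM and Mpo at 0 in every library that lists it. TAM-WT replicate 1, with Areg and Hbegf within the TAM-KO range, had the highest T cell and NK cell sums of the TAM-WT libraries. In TAM-KO replicate 1, where not every gene of these lists has a value, Cd3g was at 8.49 FPKM, Cd8a at 4.22 and Gzmb at 6.17. That library stood apart in neutrophil genes, with S100a8 at 73.5 FPKM, S100a9 at 80.0 and Csf3r at 33.6. Without it the TAM-KO mean of S100a8 was 11.8 ± 3.53 (n = 3) in place of 27.2 ± 30.9 (n = 4), beside 4.03 ± 1.21 (n = 4) in TAM-WT. The part of these cells in the ligand differences was not tested.

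Genes of further cell types that can make EGF receptor ligands were looked up as well. Of 7 mast cell and basophil genes, 4 had a row. Mcpt8 had no FPKM in any library and Cpa3 and Ms4a2 reached at most 0.05, leaving Kit at 2.46 FPKM in TAM-WT and 2.31 in TAM-KO. The innate lymphoid cell genes Il13 and Il5 averaged 0 and 0.0125 FPKM in TAM-WT, while Il7r stood at 38.0 ± 14.0 in TAM-WT and 21.5 ± 4.09 in TAM-KO (n = 4 each) and Rora at 2.38 and 2.47. Il1rl1, the IL-33 receptor gene, was at 0.36, 0.29, 0.66 and 0.69 FPKM in TAM-WT and 0.23, 0.24, 0.14 and 0.26 in TAM-KO, with no overlap (log2 fold change -1.43, edgeR adjusted p = 0.0617, 3 TAM-KO libraries). Gata3 went the other way, from 0.110 ± 0.0931 to 0.330 ± 0.0606 FPKM (n = 4 each), also with no overlap (log2 fold change 1.54, edgeR adjusted p = 0.102, 3 TAM-KO libraries). Of the genes tested on 8 libraries, 4.8% had no overlap in the direction of Il1rl1 and 12.3% in that of Gata3, a set that includes neither gene. Il1rl1 had 12 to 55 reads a library and Gata3 1 to 21, with TAM-KO replicate 1 from the series-wide table for both. Of 5 keratinocyte genes only Krt10 and Krt14 had a row, and they summed to at most 0.18 FPKM. The part of these cells in the ligand levels was not tested either. Fibroblast genes, led by Col1a1 and Col1a2, summed to 2.06 to 6.19 FPKM, and endothelial genes, led by Kdr and Cdh5, to 1.19 to 3.40. B cell genes, led by Cd79b and Cd79a, summed to 4.37 to 10.9 and dendritic cell genes, led by Ccr7 and Zbtb46, to 5.01 to 11.8, with Xcr1 called higher in TAM-KO.

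The remaining ligands of the family did not pass the test. Nrg4, a ligand of ERBB4, was the most abundant of them at 1.51 ± 0.450 FPKM in TAM-WT and 1.22 ± 0.303 in TAM-KO (n = 4 each, log2 fold change -0.38, edgeR adjusted p = 0.406). Nrg2 stood at 0.153 ± 0.0877 and 0.285 ± 0.201 (n = 4 each, log2 fold change 0.69, edgeR adjusted p = 0.381). Egf itself was at 0.275 ± 0.0265 (n = 4) and 0.237 ± 0.106 (n = 3), with an adjusted p of 0.556 by edgeR. Epgn, which lies 104 kb from Areg, and Nrg3 had at most 2 reads in any library and were not tested.

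Of the 4 receptors, Erbb3 and Erbb2 were measured above the filter. Erbb3, which binds neuregulins, was at 3.96 ± 0.992 FPKM in TAM-WT (n = 4) and 4.82 ± 0.225 in TAM-KO (n = 3), a log2 fold change of 0.19 (edgeR adjusted p = 0.433). Erbb2, the partner with no ligand of its own, was at 1.26 ± 0.484 and 2.06 ± 0.0954 (n = 4 each, log2 fold change 0.62, edgeR adjusted p = 0.117). Its TAM-WT values were 1.10, 1.97, 0.89 and 1.07 FPKM, and the highest of these, replicate 2, is the TAM-WT library with the highest melanoma cell sum. Erbb3 was also highest in that TAM-WT library, at 4.30, 5.21, 3.09 and 3.24 FPKM. The part of melanoma cells in the levels of Erbb2 and Erbb3 was not tested. Egfr, the receptor of Areg and Tgfa, had 2 to 10 reads a library (0.0825 ± 0.0206 FPKM in TAM-WT, n = 4, and 0.0600 ± 0.0346 in TAM-KO, n = 3) and was not tested. Erbb4 had 0 reads except for 1 read in TAM-KO replicate 3.

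Over 6 lists of the family's other ligands, receptors, processing enzymes, signaling proteins, inhibitors and transcription factors, 71 genes had a row and 67 were tested. Of these, 8 passed the edgeR test at an adjusted p of 0.05, 6 lower and 2 higher in TAM-KO, which is 11.9% of those tested beside 9.81% of all genes. The count changed with single libraries. It was 18 without TAM-WT replicate 2, 1 and 2 without TAM-WT replicates 3 and 4, 3 without TAM-KO replicate 1, and 0 when either replicate 2 or replicate 3 of TAM-KO was left out. The share of all genes called moved too, from 0.617% to 22.2%.

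**Figure D3:**
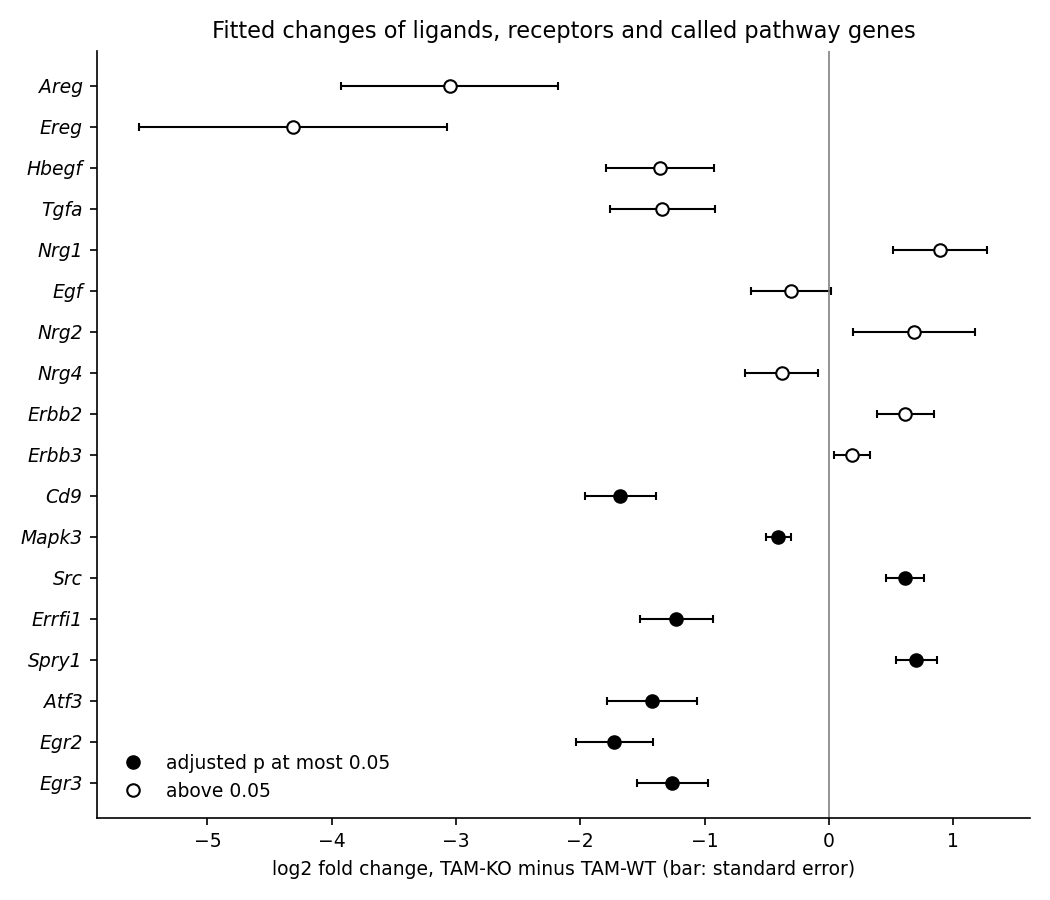
Fitted log2 fold change, TAM-KO minus TAM-WT (horizontal axis), with its standard error, for the tested ligands, the tested receptors and the 8 called pathway genes. Filled points passed an adjusted p of 0.05, and the ligands Areg and Ereg have the lowest values and the widest errors.

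Among 12 genes of ligand processing, 1 was called lower in TAM-KO and 0 higher by edgeR, beside 5.24% and 4.58% of all genes. By sign of the fold change, 7 were lower and 5 higher. Cd9, a tetraspanin that associates with the membrane form of HB-EGF, fell from 215 ± 39.7 FPKM in TAM-WT to 87.6 ± 39.1 in TAM-KO (n = 4 each, TAM-KO replicate 1 from the series-wide table). Its values were 177, 195, 269 and 217 in TAM-WT and 135, 56.5, 54.3 and 105 in TAM-KO, with no overlap. That held in this direction for 4.8% of the genes tested on 8 libraries, a set that does not include Cd9. The log2 fold change was -1.68 (SE 0.29, edgeR adjusted p = 0.0205, 3 TAM-KO libraries), and -1.41 (adjusted p = 0.0327) with the fourth filled in. The sheddases that cut the ligands were well expressed. Adam17 stood at 45.6 ± 4.84 FPKM (n = 4) and 52.5 ± 2.77 (n = 3), with a log2 fold change of 0.09 (SE 0.10), and Adam10 at 37.9 ± 3.24 and 43.4 ± 3.67, with 0.09 (SE 0.08). Adam8, a myeloid metalloprotease and the most abundant gene of the list, was at 496 ± 107 (n = 4) and 334 ± 129 (n = 3) with an adjusted p of 0.161 by edgeR. Adam15 was at 112 ± 8.08 and 102 ± 15.4 (adjusted p = 0.267 by edgeR). Rhbdf1, Rhbdf2 and Frmd8, partners of ADAM17, did not pass the test. The median log2 fold change of the list was -0.11, beside 0.0016 for all tested genes.

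Among 22 adaptor and ERK cascade genes, 1 was called lower and 1 higher, beside 5.24% and 4.58% of all genes. By sign, 9 were lower and 13 higher, with a median log2 fold change of 0.02. Mapk3, which encodes the kinase ERK1, fell from 133 ± 9.28 to 108 ± 11.0 FPKM (n = 4 each, log2 fold change -0.41, SE 0.10, edgeR adjusted p = 0.0362). Src, a tyrosine kinase that acts with the receptors, rose from 8.14 ± 2.56 to 13.4 ± 0.778 FPKM (n = 4 each, log2 fold change 0.61, SE 0.15, edgeR adjusted p = 0.0403), and its TAM-WT values were highest in replicate 2 (11.8), as for Erbb2. Akt1 (165 ± 22.4 FPKM in TAM-WT, n = 4, and 203 ± 9.77 in TAM-KO, n = 3) and Grb2 (110 ± 7.25 and 91.6 ± 3.79) had adjusted p of 0.174 and 0.0593 by edgeR.

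Of 14 receptor and ERK inhibitors, 1 was called lower and 1 higher, beside 5.24% and 4.58% of all genes. By sign, 10 were lower and 4 higher, and the median log2 fold change was -0.24. Errfi1, also known as MIG6, binds the EGF receptor's kinase and blocks it. It was at 24.4, 31.1, 57.4 and 49.1 FPKM in TAM-WT and at 22.9, 13.5, 17.8 and 21.4 in TAM-KO. The groups did not overlap, as for 4.8% of the genes tested on 8 libraries in this direction. The log2 fold change was -1.23 (SE 0.29, edgeR adjusted p = 0.0348). Spry1, an inhibitor of ERK signaling, moved the other way, from 2.16 ± 0.565 to 3.83 ± 0.357 FPKM (n = 4 each, log2 fold change 0.70, SE 0.16, edgeR adjusted p = 0.0323). Dusp1, a phosphatase of MAP kinases and the most abundant gene of the list, was at 526 ± 193 and 270 ± 98.4 FPKM (n = 4 each) with an adjusted p of 0.0704 by edgeR. Dusp6, a phosphatase of ERK, was at 88.7 ± 9.43 and 83.3 ± 6.14 (adjusted p = 0.135 by edgeR), and Cbl, a ubiquitin ligase of activated receptors, at 33.2 ± 6.03 (n = 4) and 27.4 ± 1.49 (n = 3, adjusted p = 0.134 by edgeR).

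The transcription factors of the AP-1, CREB and EGR families had the lowest median of the 6 lists, -0.86 on the log2 scale. Of 14 tested, 3 were called lower and 0 higher, beside 5.24% and 4.58% of all genes, and 12 of 14 had a negative fold change, beside 49.7% of all tested genes. The 3 tests used 3 TAM-KO libraries, while the means include TAM-KO replicate 1 from the series-wide table. Egr2 fell from 43.9 ± 15.7 to 18 ± 6.80 FPKM (means of n = 4), with a log2 fold change of -1.73 (SE 0.31, edgeR adjusted p = 0.0220), or -1.44 (0.0356) with TAM-KO replicate 1 filled in. That library, at 28.0 FPKM, was above TAM-WT replicate 1 (25.5). Egr3 fell from 1.79 ± 0.563 to 0.980 ± 0.359 (means of n = 4), with a log2 fold change of -1.26 (SE 0.29, edgeR adjusted p = 0.0357). Filled in, it was -0.99 with an adjusted p of 0.0705 and no longer passed, and TAM-KO replicate 1 (1.51) was above TAM-WT replicate 1 (1.38). Atf3, a stress-induced factor of the CREB family, fell from 418 ± 148 to 197 ± 72.0 (means of n = 4), with a log2 fold change of -1.42 (SE 0.36, edgeR adjusted p = 0.0465). It did not pass either once filled in (-1.21, adjusted p = 0.0580). Fos (596 ± 141 and 377 ± 67.3 FPKM, n = 4 each), Junb (390 ± 102 and 255 ± 53.5) and Jun (321 ± 85.4 and 221 ± 45.0) had adjusted p of 0.0521, 0.0676 and 0.0964 by edgeR. Egr1, the EGR factor with the most reads, was at 86.0, 310, 373 and 311 FPKM in TAM-WT and 203, 66.1, 42.7 and 118 in TAM-KO (log2 fold change -1.95, SE 0.55, edgeR adjusted p = 0.0582). Creb1, the CRE-binding factor itself, was at 9.23 ± 1.09 FPKM (n = 4) and 10.4 ± 0.235 (n = 3), with a log2 fold change of 0.06 (SE 0.08). The summed FPKM of the 14 factors was 1435, 2425, 2990 and 2547 in TAM-WT. It was 1081, 1173 and 1560 in replicates 2 to 4 of TAM-KO. TAM-WT replicate 1 was thus the lowest TAM-WT library in this sum, in Areg, in Ereg and in Hbegf.

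**Figure D4:**
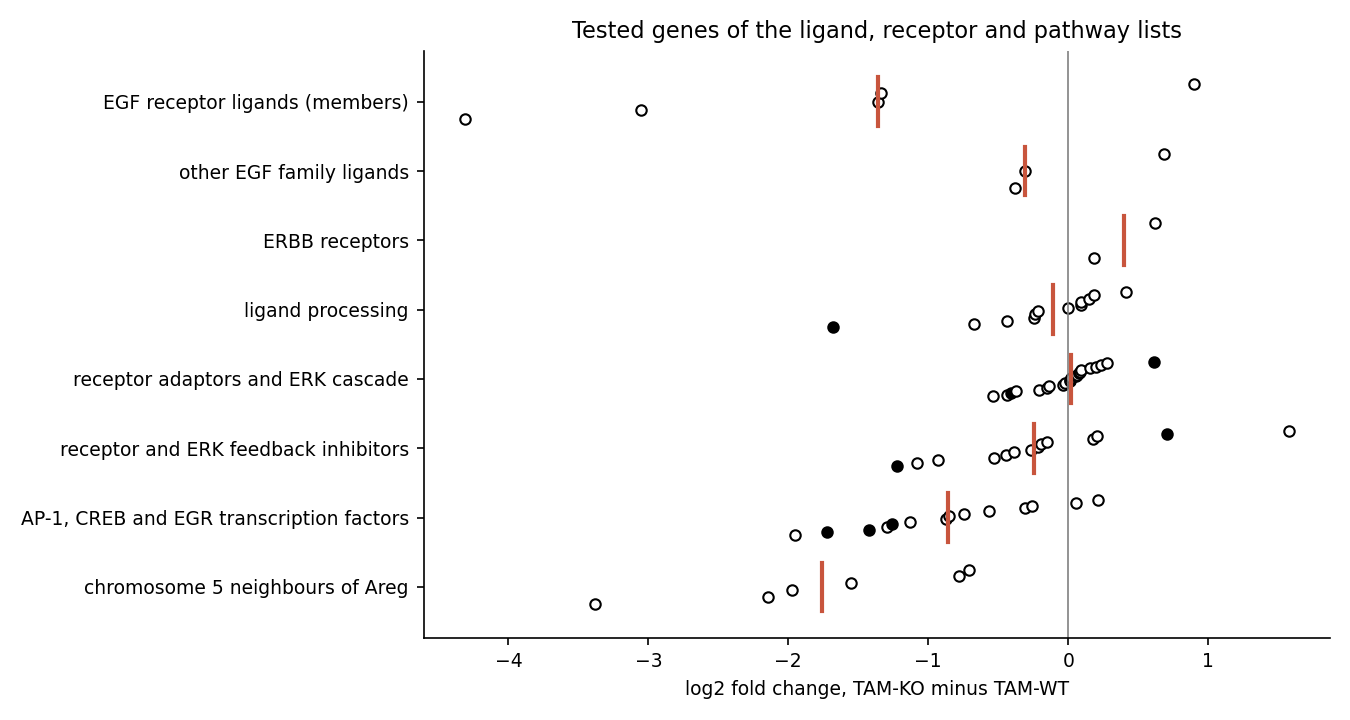
Log2 fold change, TAM-KO minus TAM-WT (horizontal axis), of every tested gene in the ligand, receptor and pathway lists (rows), with filled points for an adjusted p of at most 0.05 and a red line at each list's median. The medians run from -1.76 for the chromosome 5 neighbors of Areg to 0.40 for the 2 tested receptors.

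The genes whose profile over the 7 complete libraries was most like a ligand's were sought for ligands with a mean CPM (reads scaled to library size) of at least 5, which only Hbegf reached (7.41). Among 10381 genes, the closest was Irs2, an adaptor of the insulin receptor, with a root mean square difference from Hbegf of 0.122 on the centered log2 scale. Atf3 (0.158) and Maff (0.164), a small MAF transcription factor, followed. Irs2 was at 13.4, 24.9, 37.5 and 29.6 FPKM in TAM-WT and 16.7, 7.54, 11.2 and 14.3 in TAM-KO. Maff was at 10.1, 27.7, 33.4 and 27.5 FPKM in TAM-WT and 19.1, 6.41, 11.4 and 12.9 in TAM-KO. Both have TAM-WT replicate 3 highest and TAM-KO replicate 2 lowest, as Hbegf does. Their log2 fold changes were -1.21 and -1.40 with edgeR adjusted p of 0.05002 and 0.0738.

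**Figure D5:**
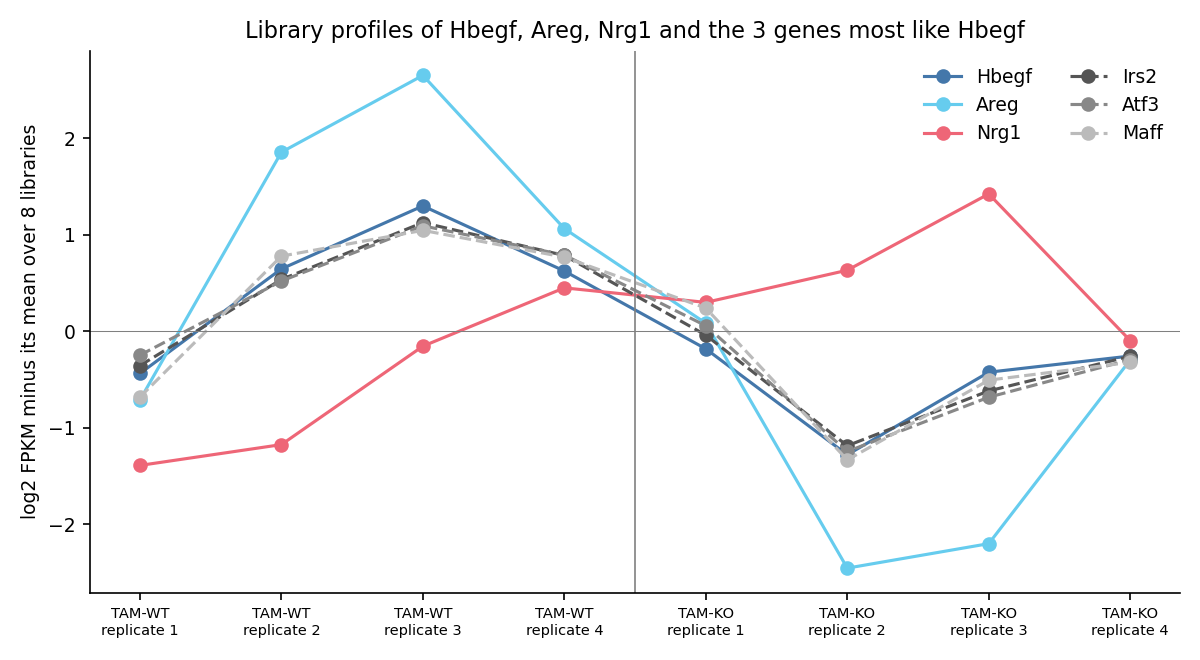
Log2 FPKM minus the gene's own mean over 8 libraries (vertical axis) for Hbegf, Areg and Nrg1 (solid lines) and for Irs2, Atf3 and Maff (dashed lines) in each library (horizontal axis). Lines only join the points of a gene, and TAM-KO replicate 1 is from the series-wide table for Hbegf, Areg, Atf3 and Maff. Areg has the widest range, the dashed genes run close to Hbegf, and Nrg1 is highest in TAM-KO replicate 3.

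On 1 side of Areg and Ereg on chromosome 5 lies a cluster of CXC chemokine genes, several of which attract neutrophils. The chemokine genes with a row lie 234 to 378 kb from Areg. The 10 neighbors listed include Mthfd2l, Epgn and Parm1, 9 had a row, and 6 were tested. All 6 had a negative fold change, beside 49.7% of all tested genes, with a median of -1.76. By edgeR, 0 passed an adjusted p of 0.05 and 5 had an unadjusted p of at most 0.05, as 15.7% of all genes did in that direction. Cxcl1, 246 kb from Areg, was at 33.8, 408, 407 and 127 FPKM in TAM-WT and 113, 7.54, 15.4 and 51.4 in TAM-KO (log2 fold change -3.38, SE 0.99, edgeR adjusted p = 0.0647, 3 TAM-KO libraries). Cxcl2 was at 912 ± 510 and 339 ± 320 FPKM (n = 4 each, edgeR adjusted p = 0.188) and Pf4, the platelet factor 4 gene, at 1782 ± 300 and 1158 ± 387 (n = 4 each, edgeR adjusted p = 0.0829). Mthfd2l, a mitochondrial folate enzyme and not a chemokine, was at 1.82 ± 0.443 and 1.12 ± 0.200 (n = 4 each, log2 fold change -0.78, edgeR adjusted p = 0.0622). The summed FPKM of the neighbors was 1869, 3254, 4303 and 2842 in TAM-WT and 2452, 846, 1071 and 1942 in TAM-KO, and within each group the libraries stood in the same order as for Areg.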

How the data were processed

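RNA-Seq of sorted TAMs from 4 WT and 4 Colec11-/- mice was analyzed, with groups and replicate numbers from the deposited labels. BGISEQ-500 reads were aligned with Bowtie2, and the authors' processing notes also name HISAT2 2.0.4, Bowtie2 2.2.5, RSEM 1.2.12 and GRCm38.p6. The expected counts were deposited by the authors as RSEM estimated them, without normalization. The FPKM values were computed by the authors with RSEM, relative to gene length and mapped reads. The deposited TPM values enter no result. The authors' own fold changes, p-values and q-values were not used.

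The table of TAM-KO replicate 1 lacks an unbroken run of 5311 of 21051 genes, and 629 of its values, placed at the wrong gene, were not used. Where its values were taken from the series-wide table (1188 genes), they enter FPKM means, and counts only in 1 alternative fit. Over 30780 counts present in both kinds of table, all were equal (tolerance 0.006).

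Expected counts were rounded and fitted with edgeR 4.0.16 under R 4.3.3 (filterByExpr, TMM, glmQLFit, glmQLFTest). The design assumed 8 complete libraries. The 9396 genes with 8 values used 8 libraries and the other 3016 used 7, with Benjamini-Hochberg adjustment over both together. Alternatives used DESeq2 1.42.0, limma 3.58.1, other filters, pseudocounts of 1 and 0.1 on the log2 FPKM scale, and fits without each library. Standard errors beside edgeR fold changes are the size of the log2 fold change divided by the square root of the quasi-likelihood F statistic. These standard errors reflect differences between mice, and intervals from reads cover counting error only. Within each group, no 2 libraries were duplicates by a chi-square test of their counts, and pairs across the groups were not tested.

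The members and lists were chosen with earlier results of these data known. All members were named. From the other lists, genes passing an adjusted p of 0.05, the 3 of highest mean FPKM in each list, all receptors and ligands, the 3 genes most like a member in profile (root mean square difference of centered log2(CPM + 0.5)) and the 2 highest markers of each cell type were named. Other genes, such as Adam17, Adam10, Egr1, Creb1 and Mthfd2l, were added after their values were seen. Gene positions and promoter sequences are from RefSeq on GRCm38.p6.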

Additional observations from a re-analysis of the deposited data

Results flagged for a closer look

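Epgn, the epigen gene next to Ereg, had an FPKM of 0.04 in TAM-WT replicate 3 and 0 in the other 3 TAM-WT libraries, so that 1 library stood apart from its group. The value rests on 1 read. It was the only such case among 23 groups of 4 libraries examined for the ligands and receptors, where chance gives about 1.1.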

How the results depend on the processing

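No fold change of the 5 tested ligands or the 8 called pathway genes changed sign under any alternative that gave a value. The count of ligands called, 0 in the report, was 4 with the DESeq2 Wald test, 2 with limma voom and 1 with limma on log2(FPKM + 0.1), and it ranged from 0 to 3 when single libraries were left out (3 without TAM-WT replicate 1, where 9.31% of all genes were called, and 1, Tgfa, when TAM-WT replicate 2 or TAM-KO replicate 1 was left out, where 22.2% and 5.47% were). The count of pathway genes called, 8 in the report, was 20 with DESeq2, 29 with voom and 0 at an adjusted p of 0.01, and it ranged from 0 to 18 without single libraries. The cause was not tested. All genes called came to 18.2% with DESeq2 and 29.2% with voom. With the replicate number as a block, 4 ligands, 14 pathway genes and 8.70% of all genes were called. However, samples of the same number had correlations of -0.32, 0.02, -0.24 and 0.26 over genes and so share only a number. Areg, Ereg and Hbegf were tested without TAM-KO replicate 1. For them the block of replicate 1 held only TAM-WT replicate 1, which then added nothing to the comparison. Their log2 fold changes with the block (-3.34, -4.70 and -1.62) were close to those without TAM-WT replicate 1 (-3.40, -4.71 and -1.60). With at least 10 counts required in every library only Hbegf and Nrg1 could be tested, and Ereg failed the filter without TAM-WT replicate 2, 3 or 4. Chosen after seeing the data, a scaling to total reads (which moved the median of all genes to 0.089) called 0 ligands and 9 pathway genes, and TAM-KO replicate 1 filled from the series-wide table gave 0 and 6 (Atf3 and Egr3 no longer passed), with Areg at -2.58 and Hbegf at -1.26. Without that library's series-wide value the TAM-KO mean was 0.577 FPKM for Areg and 1.95 for Hbegf. Areg, with 4 to 145 reads a library, and Ereg, Tgfa, Btc and Nrg1, at 0 to 67 reads a library, are limited by depth as well as by the spread between mice.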
